A study of Mus musculus with 8 samples.

Results

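Nuclear-encoded subunit genes of the respiratory chain were followed through 8 RNA-seq libraries of PyMT-1099 cells, a mouse breast cancer line. The genes were chosen by symbol alone: those starting with Ndufa, Ndufb, Ndufc, Ndufs, Ndufv, Uqcr, Atp5 or Cox4 to Cox8, and Sdha to Sdhd, without the Ndufaf assembly factors and without symbols that end in a pseudogene mark. The rule found 90 of 55450 gene identifiers, and 78 of these were among the 14641 genes with enough counts to test. The libraries form 4 groups of 2: parental cells left untreated, parental cells kept for 10 days in 2 ng/ml TGF-β, Agps knockout cells left untreated, and Agps knockout cells kept in the same TGF-β. Agps encodes a peroxisomal enzyme of ether lipid synthesis. All groups were grown in high glucose medium with serum, and polyadenylated RNA was sequenced. The sources used here do not say whether the knockout line is a clone or a pool, or whether the 2 libraries of each group are separate cultures. The p-values therefore rest on the spread among these particular libraries, and that spread may be technical.

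The respiratory chain sits in the inner mitochondrial membrane. Complex I takes electrons from NADH and complex II takes them from succinate, both hand them to coenzyme Q, complex III passes them on to cytochrome c, and complex IV gives them to oxygen. Complexes I, III and IV pump protons as they work, and complex V, the ATP synthase, lets the protons back through to make ATP. A few core subunits are encoded by mitochondrial DNA, and the nuclear genes described here encode most of the others. The symbol rule does not take in every nuclear-encoded subunit: cytochrome c1 of complex III is in a separate list below. TGF-β is a cytokine that drives epithelial to mesenchymal transition in mammary epithelial cells.

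The promoters of the members that were lower with TGF-β in both lines are shown first, because the results below turn on these genes. Upstream stretches of 5 of them, free of annotated exons, were read from RefSeq (GRCm38.p6) and are given 5′ to 3′ on the gene's own strand, with capitals marking the only matches to the motifs searched. Sdhd lies on the minus strand and its stretch is chr9:50603850-50603909. That of Uqcrfs1, also minus, is chr13:30545363-30545436. For Ndufa6, minus, it is chr15:82354323-82354411. Ndufv3, plus, has chr17:31519995-31520114, and Ndufa9, minus, has chr6:126849145-126849264.
Sdhd: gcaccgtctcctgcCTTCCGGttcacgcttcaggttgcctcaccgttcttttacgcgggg
Uqcrfs1: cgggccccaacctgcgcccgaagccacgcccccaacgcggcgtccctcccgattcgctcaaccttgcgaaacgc
Ndufa6: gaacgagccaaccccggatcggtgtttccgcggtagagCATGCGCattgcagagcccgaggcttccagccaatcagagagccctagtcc
Ndufv3: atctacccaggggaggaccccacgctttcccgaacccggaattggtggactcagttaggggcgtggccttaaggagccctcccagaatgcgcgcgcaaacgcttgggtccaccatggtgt
Ndufa9: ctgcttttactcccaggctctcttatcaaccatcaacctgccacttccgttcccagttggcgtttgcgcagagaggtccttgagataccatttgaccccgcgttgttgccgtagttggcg

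In Sdhd the capitals are the reverse complement of CCGGAAG, a core bound by ETS family factors, and in Ndufa6 they are the reverse complement of GCGCATG, a core of the NRF1 site. Windows of 250 bases before to 50 bases after the start were available for 69 members, 74 windows in all, and were searched on both strands, with overlaps between motifs left in. GCGCATG was found in 17.6% of the member windows and in 3.91% of all 32851 windows of the same length. CCGGAAG was found in 21.6% of member windows against 8.86% of all. The core of oestrogen-related receptor sites, AAGGTCA, was present in 10.8% against 4.72%, and that of YY1, AAGATGG, in 14.9% against 6.34%. TGACGT, the core of a cyclic AMP response element, stood at 13.5% against 7.51%, and the GC box GGGCGG at 40.5% against 35.7%. Each motif was thus present in a larger share of the member windows than of all windows. Among the 7 members lower in both lines, the windows of Ndufa6 (GCGCATG), Sdhd (CCGGAAG and AAGGTCA), Ndufa9 (AAGATGG), Ndufa5 and Uqcrfs1 (TGACGT) held these letters, and the GC box was in 4 of the 7 (Ndufa5, Ndufa6, Ndufv3 and Sdhd). A match is a run of letters in a window and was not measured as binding.

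Library totals ran from 17007268 to 21311831 counts. Agps, the targeted gene, stood at 357 and 330 CPM (the counts of a gene scaled to the size of its library) in untreated parental cells, 265 and 266 with TGF-β, 32.9 and 29.3 in untreated knockout cells and 43.9 and 35.6 in knockout cells with TGF-β, so every knockout library was below every parental one. Of the 12 members that were not tested, none had more than 12 counts in any library and 3 had no count at all. They are the tissue isoforms Cox4i2, Cox6a2, Cox6b2, Cox7b2, Cox8b, Cox8c and Ndufa4l2, a second identifier of Atp5o, and 4 genes annotated as processed pseudogenes (Cox6c2, Ndufa11b, Ndufb4c and Ndufs6b). The 2 knockout libraries given TGF-β stood apart from each other: their median log2 CPM over the tested members was 5.38 in replicate 1 and 5.67 in replicate 2, and the counts of calls and the member calls in treated knockout cells are given with and without each. Of the labelled epithelial cells' markers, Cdh1, Krt8, Krt18 and Krt19 were measured and Epcam was at 0 in every group. The 5 markers summed to between 5801 and 6396 CPM in untreated parental cells, 3125 to 3327 with TGF-β, 4181 to 4506 in untreated knockout cells and 3234 to 3448 in knockout cells with TGF-β. Fibroblast, endothelial and adipocyte marker sums were at most 3.64, 0.953 and 1.81 CPM. Immune markers summed to at most 2.90 CPM untreated and to between 6.41 and 11.9 CPM with TGF-β, with Cd3e at 0 throughout. Muscle markers summed to between 8.55 and 13.2 CPM untreated and 208 to 237 CPM with TGF-β, where Tnnt2 was the only one with enough counts to test. The part of these marker changes in the results below was not tested. In bulk RNA, fewer cells of a type and less RNA per cell cannot be told apart.

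With TGF-β in parental cells, 17 of the 78 tested members fell and 1 rose. Over all genes tested 42.5% were called, 21.2% as falls and 21.3% as rises, so the share of members that fell was close to the background while few members rose. The median log2 fold change of the members was -0.15, against 0.008 for all genes, and 67 of the 78 lay below 0. The changes were small. The median size was 0.19 on the log2 scale against 0.37 for all genes, and no member reached a 2-fold change, which 20.4% of all genes did. The count of falls rested on few libraries: it was 6 without replicate 2 of the untreated parental libraries, and 5 and 4 without replicate 1 and 2 of the treated ones, where the library left alone is assumed to vary like the other groups.

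In knockout cells TGF-β gave 10 falls and 3 rises among the 78 members, where 41.4% of all genes were called, 20.6% as falls and 20.9% as rises. The members' median log2 fold change was -0.049, with all genes centred near 0, and 53 lay below 0. This picture turned on the treated replicates. The medians given next for fits without 1 of them are over the 80 members tested there. Over the same 78 members they were 0.073 without treated replicate 1 and -0.21 without treated replicate 2. Without replicate 1 of the treated knockout libraries there were 6 rises and 3 falls and the median was 0.057, and without replicate 2 there were no rises and 16 falls, with a median of -0.21. By complex, leaving out treated replicate 1 gave 2 rises and 2 falls in complex I, no call in complex II, 1 rise and 1 fall in complex III, 1 rise in complex IV and 2 rises in complex V. Leaving out treated replicate 2 gave 11, 1, 2, 1 and 1 falls in complexes I to V. Without replicate 1 or 2 of the untreated knockout libraries there were no rises, and 9 or 6 falls.

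**Figure D1:**
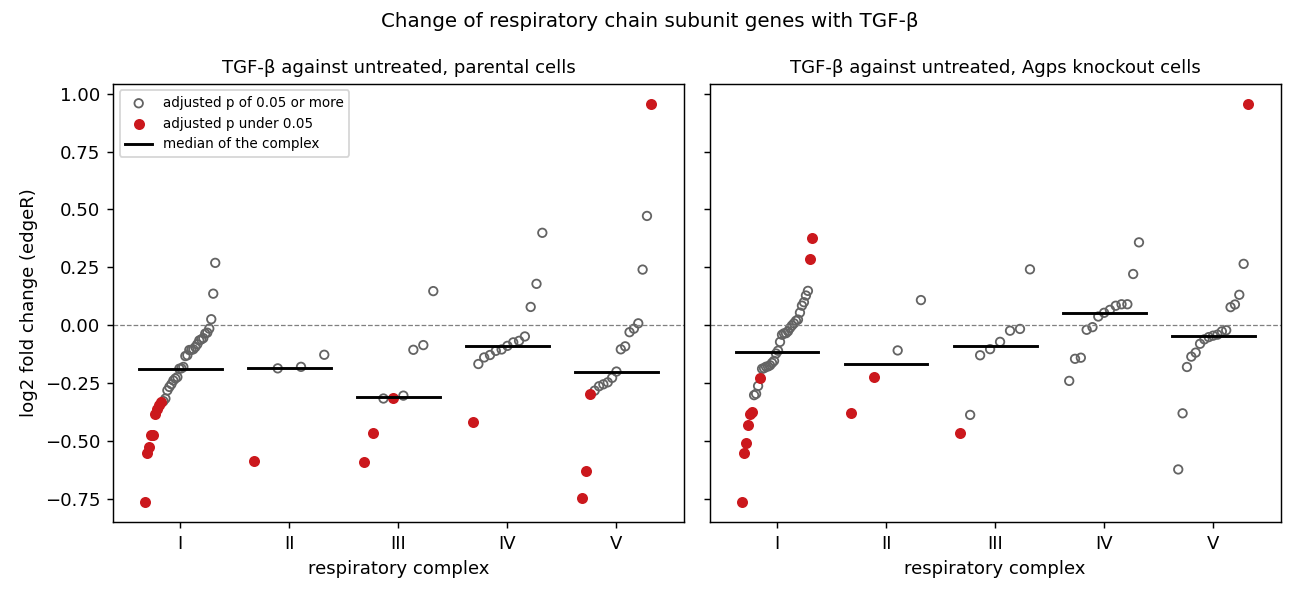
Log2 fold change of each tested subunit gene with TGF-β against untreated cells (y axis) by respiratory complex (x axis), in parental cells (left) and Agps knockout cells (right). Filled red points have an adjusted p under 0.05, open points do not, and the black line is the median of the complex: the medians lie below 0 in all 5 complexes in parental cells and in all but complex IV in knockout cells, where without treated replicate 1 only that of complex II lies below 0 and without treated replicate 2 all 5 do.

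Complex I had 36 tested members, of which 9 fell and 0 rose in parental cells (median -0.19) and 7 fell and 2 rose in knockout cells (median -0.12). Over all genes tested, 21.2% fell and 21.3% rose in parental cells, and 20.6% fell and 20.9% rose in knockout cells. These are the shares to set beside each count by complex or module. Most of these sets are small, and whether any count differs from its share was not tested. The subunits were also split by the module in which they are built. In the N module, which binds NADH, 4 of 10 fell in parental and 3 of 10 in knockout cells (1 and 4 without treated knockout replicate 1 and 2). In the Q module, which reduces coenzyme Q, 2 of 5 fell in parental cells, and in knockout cells 1 fell and 1 rose (1 and 1 without treated replicate 1, 2 and 0 without replicate 2). The 21 subunits outside the N and Q modules were counted as the membrane arm, which pumps protons. They had 3 falls in parental cells and 3 falls and 1 rise in knockout cells. The falls in each line include Ndufa9, which sits where the 2 arms meet, so this count is not of the membrane arm alone. Their median in knockout cells was -0.07, with 0.03 without treated replicate 1 and -0.25 without replicate 2.

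Ndufa6 (chr15:82350140-82354322), an accessory subunit that holds the acyl carrier protein to the complex, stood at 51.1 and 62.4 CPM in untreated parental cells, 33.2 and 33.5 CPM with TGF-β, 39.99 and 51.9 CPM in untreated knockout cells and 28.1 and 36.5 CPM in knockout cells with TGF-β. Both treated libraries lay below both untreated ones in each line. With 2 libraries a group this was common. It held for 45 of the 78 members and 5163 of all 14641 genes in parental cells. In knockout cells it held for 21 members and 5025 genes. The log2 fold change was -0.76 (SE 0.16, edgeR adjusted p = 0.00227) in parental and -0.51 (SE 0.16, edgeR adjusted p = 0.0222) in knockout cells. The knockout call was lost without replicate 2 of the untreated knockout libraries (-0.31, edgeR adjusted p = 0.180) and without replicate 1 of the treated ones (-0.33, edgeR adjusted p = 0.209). Ndufv3 (chr17:31520115-31531331), an accessory subunit of the NADH-binding module, measured 52.0 and 63.2, then 38.9 and 39.6 CPM in parental cells, and 66.5 and 83.4, then 38.9 and 49.3 CPM in knockout cells. Again no treated library reached an untreated one of its line. Its log2 fold change was -0.55 (SE 0.15, edgeR adjusted p = 0.0106) in parental and -0.77 (SE 0.15, edgeR adjusted p = 0.00127) in knockout cells. The parental call of Ndufv3 was lost without replicate 2 of the untreated libraries (-0.41) and without replicate 1 (-0.54) or 2 (-0.57) of the treated ones, with an edgeR adjusted p of up to 0.0714.

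Ndufa5, an accessory subunit of the Q module, stood at 40.3 and 38.5 CPM untreated and 27.3 and 29.3 CPM with TGF-β in parental cells, and at 42.9 and 41.8 against 26.4 and 31.4 CPM in knockout cells. It fell by 0.48 on the log2 scale (SE 0.11, edgeR adjusted p = 0.00492) in parental and by 0.55 (SE 0.11, edgeR adjusted p = 0.00178) in knockout cells. Ndufa9, which sits where the 2 arms of the complex meet, went from 96.5 and 97.0 to 76.1 and 74.2 CPM in parental cells and from 101 and 104 to 68.8 and 83.6 CPM in knockout cells. For Ndufa9 the log2 fold changes were -0.36 (SE 0.10, edgeR adjusted p = 0.0129) and -0.43 (SE 0.10, edgeR adjusted p = 0.00493). Ndufb11, an X-linked subunit of the membrane arm, fell by 0.39 (SE 0.12, edgeR adjusted p = 0.0243) in parental and by 0.38 (SE 0.13, edgeR adjusted p = 0.0297) in knockout cells. Of its annotated exon bases, 12.9% overlap Rbm10 on the opposite strand, and whether the counting used strand is not given in the sources used here. Leaving out replicate 1 of the treated parental libraries, the parental calls of Ndufa5 (-0.43), Ndufa9 (-0.38) and Ndufb11 (-0.43) were lost, and without replicate 2 those of Ndufa9 (-0.35) and Ndufb11 (-0.35). Without replicate 2 of the untreated parental libraries Ndufb11 (-0.37) lost its parental call. Without replicate 1 of the treated knockout libraries Ndufa9 (-0.29, edgeR adjusted p = 0.0521) and Ndufb11 (-0.22, edgeR adjusted p = 0.232) lost their knockout calls, and that of Ndufb11 was lost in 7 of 14 alternatives.

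Other complex I members passed in 1 line only. Ndufs7 and Ndufv1, core subunits that carry an iron-sulfur cluster and the flavin, fell by 0.53 and 0.35 in parental cells, as did the accessory subunits Ndufa2 (by 0.47) and Ndufb10 (by 0.33). In knockout cells Ndufs4, an accessory subunit whose loss causes Leigh syndrome, fell by 0.38 (edgeR adjusted p = 0.00732), and Ndufa10 fell by 0.23 (edgeR adjusted p = 0.0448). Ndufb2, a small subunit of the membrane arm, rose in knockout cells by 0.38 (SE 0.13, edgeR adjusted p = 0.0362): its libraries stood at 14.6 and 13.9 CPM untreated and 17.2 and 19.8 CPM treated. Of the 50-base stretches of its principal transcript 33.5% also occur in other genes' transcripts. In parental cells its log2 fold change was -0.02, and the difference between the lines did not pass (0.39, SE 0.19, edgeR adjusted p = 0.382). Each of these calls was lost without at least 1 library. In parental cells those of Ndufs7, Ndufv1, Ndufa2 and Ndufb10 went without replicate 2 of either group, with values from -0.28 (Ndufv1) to -0.47 (Ndufs7). Without treated replicate 1 those of Ndufs7 (-0.59), Ndufv1 (-0.43) and Ndufb10 (-0.26) went too, and without untreated replicate 1 those of Ndufv1 (-0.33) and Ndufb10 (-0.29). Under upper quartile scaling that of Ndufb10 was lost as well (-0.29, edgeR adjusted p = 0.0722). In knockout cells the call of Ndufs4 went without treated replicate 1 (-0.30, edgeR adjusted p = 0.0672), and Ndufa10 passed in 1 of 14 alternatives. The call of Ndufb2 was lost in 8 of 14: without treated replicate 2 (0.27), without either untreated knockout library (0.41 and 0.34), without either treated parental library (0.38 each), with no filter (0.38, edgeR adjusted p = 0.0782), with only the groups compared (0.38, edgeR adjusted p = 0.0636) and in the DESeq2 Wald test (0.39, adjusted p = 0.0708).

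Complex II, succinate dehydrogenase, is encoded wholly in the nucleus, and all 4 members were tested. Sdhd (chr9:50596357-50603812), a membrane anchor that binds coenzyme Q, stood at 105 and 92.7 CPM in untreated parental cells and 65.9 and 65.5 CPM with TGF-β. In knockout cells it stood at 113 and 114 CPM untreated and 82.3 and 92.3 CPM with TGF-β. The treated libraries were below the untreated ones in each line, and the log2 fold change was -0.59 (SE 0.10, edgeR adjusted p = 0.000468) in parental and -0.38 (SE 0.10, edgeR adjusted p = 0.00718) in knockout cells. Sdha, the flavoprotein that oxidises succinate, measured 209 and 202, then 178 and 184 CPM in parental cells and 240 and 242, then 203 and 210 CPM in knockout cells. Its fall of 0.23 (SE 0.08) passed in knockout cells (edgeR adjusted p = 0.0356), while the change of -0.18 in parental cells did not (edgeR adjusted p = 0.0833). The iron-sulfur subunit Sdhb had log2 fold changes of -0.13 and 0.11, and the second anchor, Sdhc, had -0.19 and -0.11, none of which passed. The knockout calls of Sdhd (-0.30, edgeR adjusted p = 0.0725) and Sdha (-0.20, edgeR adjusted p = 0.139) were lost without replicate 1 of the treated knockout libraries, and that of Sdha was lost in 9 of 14 alternatives.

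In complex III 3 of 8 members fell in parental cells and 1 in knockout cells, with medians of -0.31 and -0.09. Uqcrfs1 (chr13:30540308-30545362), the Rieske iron-sulfur protein that passes electrons towards cytochrome c, went from 125 and 122 to 85.2 and 78.5 CPM in parental cells and from 121 and 130 to 81.3 and 101 CPM in knockout cells. Treated and untreated libraries did not overlap in either line. The log2 fold changes were -0.59 (SE 0.11, edgeR adjusted p = 0.00101) and -0.47 (SE 0.11, edgeR adjusted p = 0.00452), and both passed in all 14 alternatives, the knockout one with an adjusted p of up to 0.0496. Uqcrc2, a core protein, fell by 0.32 (edgeR adjusted p = 0.0208) and Uqcrq, a small subunit beside cytochrome b, by 0.47 (edgeR adjusted p = 0.0492) in parental cells. In knockout cells their log2 fold changes were -0.13 and -0.39 and did not pass. The parental calls of Uqcrc2 and Uqcrq were lost without replicate 2 of the untreated libraries (-0.27 and -0.33) and without replicate 1 (-0.30 and -0.60) or 2 (-0.33 and -0.35) of the treated ones, and that of Uqcrq also under upper quartile scaling (-0.42, edgeR adjusted p = 0.0646).

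Complex IV, cytochrome c oxidase, had 13 tested members. Only Cox8a fell, in parental cells, from 66.7 and 73.9 to 50.3 and 54.9 CPM (log2 fold change -0.42, SE 0.13, edgeR adjusted p = 0.0215), and in knockout cells it stood at 70.9 and 79.2 CPM untreated and 55.3 and 71.7 CPM treated (-0.24, edgeR adjusted p = 0.156). Its parental call was lost without replicate 2 of the untreated libraries (-0.35) and without replicate 1 (-0.36) or 2 (-0.49) of the treated ones. The complex had 0 calls in knockout cells by edgeR, where 0 of its members also had an unadjusted p under 0.05. Several of its subunits come as a widely expressed and a tissue-restricted isoform, and the latter had few counts or none. Cox6a1 stood at between 55.0 and 80.3 CPM over the 8 libraries and Cox6b1 at between 100 and 132 CPM, with no call in either line. Cox7a2 stood at 61.9 and 66.9 CPM in untreated and 62.1 and 57.1 CPM in treated parental cells, while its muscle isoform Cox7a1 was between 0.417 and 1.16 CPM in all libraries. Cox7a2l, which joins complexes III and IV into supercomplexes, had log2 fold changes of -0.14 and -0.15, and Ndufa4, once counted with complex I and now with complex IV, had -0.07 and 0.07. None of these passed.

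Complex V had 17 tested members, of which 3 fell and 1 rose in parental cells and 1 rose in knockout cells. Atp5a1, the alpha subunit of the catalytic head, went from 623 and 619 to 505 and 507 CPM in parental cells (log2 fold change -0.30, SE 0.08, edgeR adjusted p = 0.0149). Atp5b, the catalytic beta subunit, had a log2 fold change of -0.03 in either line. Atp5e, the epsilon subunit of the central stalk, fell by 0.63 (SE 0.20, edgeR adjusted p = 0.0232), from 53.3 and 57.6 to 39.8 and 31.8 CPM. Atp5s, also known as coupling factor B, is a member by its symbol alone and is not a structural subunit. Its level fell by 0.75 (SE 0.26, edgeR adjusted p = 0.0396), from 6.90 and 9.02 to 5.03 and 4.41 CPM. These calls were lost without replicate 2 of the treated parental libraries (Atp5a1 -0.30, Atp5e -0.48, Atp5s -0.66), those of Atp5a1 (-0.29) and Atp5s (-0.85) also without replicate 1, and those of Atp5e (-0.58) and Atp5s (-0.55) without replicate 2 of the untreated ones.

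Both rises in complex V were in genes whose reads may be shared with copies elsewhere. Atp5l, subunit g, rose in parental cells from 2.16 and 2.46 to 4.56 and 4.41 CPM (log2 fold change 0.96, SE 0.25, edgeR adjusted p = 0.00916), and 84.8% of the 50-base stretches of its principal transcript also occur in transcripts of other genes. Its call was lost without replicate 1 of the treated parental libraries (0.93, edgeR adjusted p = 0.0517). In knockout cells it stood at 2.37 and 2.97 CPM untreated and 2.07 and 3.10 CPM treated. The c subunit, which forms the rotating ring, is made from 3 genes with different import sequences: Atp5g1, Atp5g2 and Atp5g3. Atp5g2 rose in knockout cells from 1.01 and 0.974 to 1.82 and 2.05 CPM (log2 fold change 0.95, SE 0.27, edgeR adjusted p = 0.0148), and 100% of its stretches are shared. This call was lost without either untreated knockout library (0.98 and 0.92), without treated replicate 2 (0.87) and in the DESeq2 Wald test (0.97, adjusted p = 0.116). Atp5g1 measured between 1.30 and 2.33 CPM and Atp5g3 between 189 and 265 CPM over the 8 libraries, with no call in either line. Per kilobase of principal transcript, levels were 325 CPM per kb for Atp5g3, 3.28 for Atp5g2 and 0.413 for Atp5g1. No source used here says how reads that match several places were counted, so the level of Atp5g2 may not be comparable with the others. In all, 5 tested members shared at least 50% of their stretches (Atp5l, Atp5g2, Cox7c, Atp5h and Atp5o), and 32 shared none. On the same scale per kilobase, the median member of complex I stood at 43.9, of complex II at 73.1, of complex III at 68.1, of complex IV at 119 and of complex V at 85.3 CPM per kb, with Atp5b highest at 455.

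The members that fell in both lines were Ndufa5, Ndufa6, Ndufa9, Ndufb11, Ndufv3, Sdhd and Uqcrfs1. They are 41.2% of the 17 that fell in parental cells and 70% of the 10 that fell in knockout cells. Over all genes tested, 2326 fell in both lines, 74.8% of the 3109 that fell in parental cells and 77.3% of the 3011 that fell in knockout cells. Without replicate 1 of the treated knockout libraries 3 members fell in both lines (Ndufa5, Ndufv3 and Uqcrfs1), and without replicate 2 there were 13, which include all 7. No member rose in both lines, where 1 rose in parental and 3 in knockout cells. Over all genes tested, 2257 rose in both lines, 72.4% of the 3119 parental rises and 73.9% of the 3053 knockout rises. The 17 that fell in parental cells all had a log2 fold change below 0 in knockout cells, with a median of -0.38. The 10 that fell in knockout cells all lay below 0 in parental cells, with a median of -0.43. Of all 78 tested members, 53 lay below 0 in knockout cells and 67 in parental cells. The knockout figure was 30 without treated replicate 1 and 67 without replicate 2. The TGF-β comparisons in the 2 lines share no library.

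**Figure D2:**
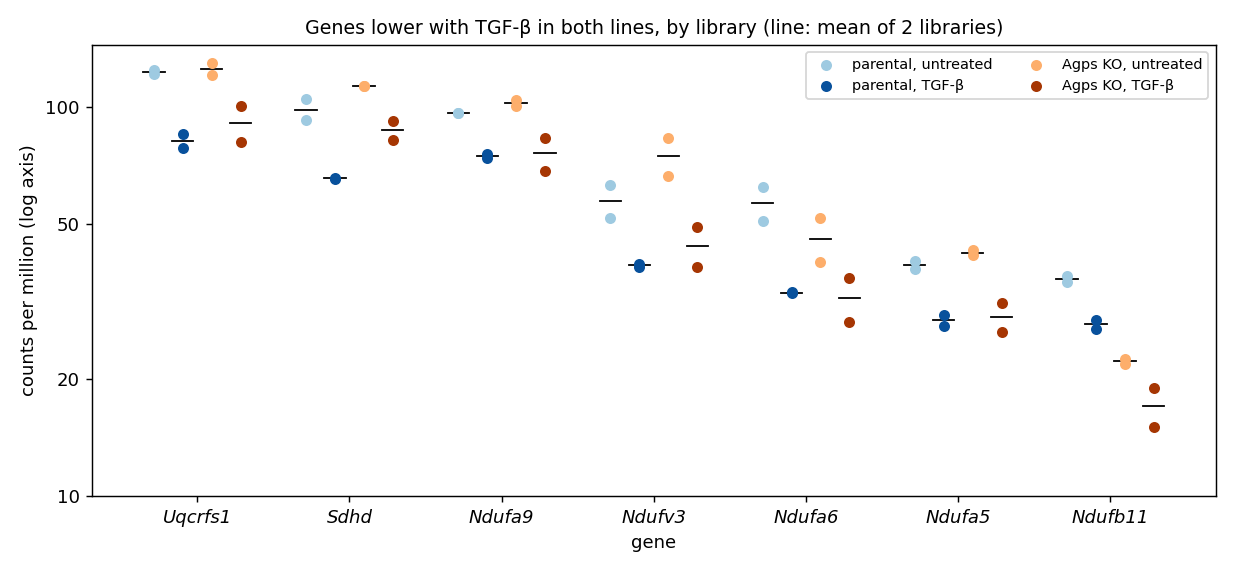
CPM (log axis) in each library for the 7 subunit genes that fell with TGF-β in both lines, by group (colour), with a line at the mean of the 2 libraries. For each gene the treated points of a line lie below its untreated points, and the 2 treated knockout libraries are further apart than the 2 treated parental ones.

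Across the 78 members, the change in parental cells and the change in knockout cells had a Pearson r of 0.73 and a Spearman rho of 0.74, and r was 0.81 without Atp5l and Atp5g2. The sign was the same for 62 members, and the parental change was the lower for 61. Both tallies moved with the treated knockout library left out: without replicate 1 they were 41 and 69 (r 0.66), and without replicate 2 they were 71 and 33 (r 0.72). The median difference between the lines, knockout minus parental, was 0.10 with all libraries, 0.27 without replicate 1 and -0.02 without replicate 2. These figures describe genes measured in the same libraries, which are not independent replicates. No member passed the edgeR test of the difference between the lines: 0 of 78 were called, where 2.4% of all genes were (1.25% higher and 1.15% lower in the change of knockout minus parental cells), and the lowest adjusted p was 0.210, for Atp5l. At an unadjusted p under 0.05 there was 1 member in edgeR and 0 in DESeq2, which also called 0. Without replicate 1 of the treated knockout libraries 16 members had an unadjusted p under 0.05, without replicate 2 there was 1, and none was called in either. The median standard error of this difference was 0.18 on the log2 scale.

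**Figure D3:**
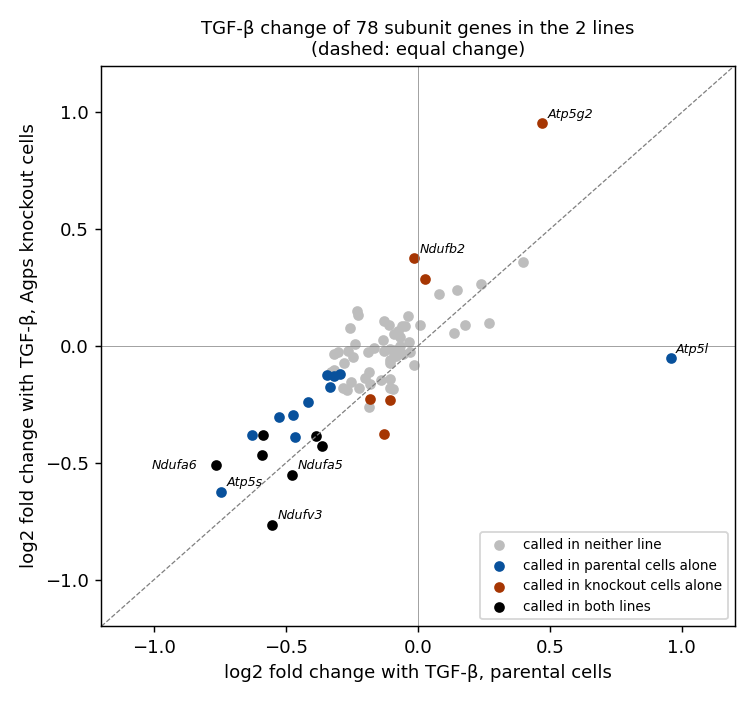
Log2 fold change with TGF-β in Agps knockout cells (y axis) against that in parental cells (x axis) for the 78 tested subunit genes, coloured by the line in which the adjusted p was under 0.05, with a dashed line at equal change. Of the 78 points 61 lie above the dashed line (69 and 33 without treated knockout replicate 1 and 2), and Atp5l and Atp5g2 lie far from the others.

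Between the lines, without treatment, 3 of the 78 members were lower in knockout cells and 0 higher by edgeR, where 13.7% of all genes were called, 8.94% lower and 4.72% higher. Both knockout libraries lay below both parental ones for 14 of the 78 members and for 3845 of all 14641 genes. At an unadjusted p under 0.05 there were 9 members, and DESeq2 also called 3 lower and 0 higher. The 3 were Ndufa1 and Ndufb11, small subunits of the complex I membrane arm that are both X-linked, and Cox4i1, the widely expressed form of complex IV subunit 4, on chromosome 8. Ndufa1 (chrX:37187588-37191163) stood at 19.8 and 22.4 CPM in the parental line and 9.47 and 10.95 CPM in the knockout line. Its log2 fold change was -1.05 (SE 0.14, edgeR adjusted p = 0.0005). Ndufb11 (chrX:20615326-20617619) stood at 35.6 and 36.8 against 21.9 and 22.6 CPM (-0.70, SE 0.12, edgeR adjusted p = 0.00279). Cox4i1 (chr8:120668222-120674207) stood at 230 and 237 against 125 and 143 CPM (-0.80, SE 0.11, edgeR adjusted p = 0.000768). For each of these genes both knockout libraries lay below both parental ones, and each call held in all 14 alternatives.

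With TGF-β in both lines, 6 members were lower in knockout than in parental cells and 3 were higher. Of all genes 17.9% were called, 11.1% lower and 6.82% higher. Most members leaned the other way: their median log2 fold change was 0.16, against 0.006 for all genes, and 63 of 78 lay above 0. Over the 80 members tested without treated knockout replicate 1 or 2, the median was 0.30 or 0.038. Ndufa1 (17.1 and 16.4 against 8.90 and 10.0 CPM, -0.83), Ndufb11 (28.5 and 26.9 against 15.1 and 19.01 CPM, -0.70) and Cox4i1 (225 and 214 against 123 and 155 CPM, -0.66) were again lower. Ndufa13 on chromosome 8, also known as the interferon-regulated protein GRIM-19, was lower by a log2 fold change of -0.45 (edgeR adjusted p = 0.0474), Cox6c on chromosome 15 by -0.34 (edgeR adjusted p = 0.026) and Atp5l by -0.80 (edgeR adjusted p = 0.0435). Of the exon bases of Ndufa13, 30.0% overlap Tssk6 on the opposite strand. The higher members were Sdhd (0.41, edgeR adjusted p = 0.0129), Atp5mpl, a small membrane subunit of complex V (0.44, edgeR adjusted p = 0.0339), and Atp5a1 (0.28, edgeR adjusted p = 0.0387). Without replicate 1 of the treated knockout libraries 9 were higher and 3 lower, without replicate 2 there were 0 higher and 5 lower, and without either treated parental library 0 higher and 3 lower, which were Ndufa1, Ndufb11 and Cox4i1. The call of Atp5l was also lost in the DESeq2 Wald test (-0.78, adjusted p = 0.142) and that of Ndufa13 with DESeq2 size factors in edgeR (-0.43, adjusted p = 0.0514). The comparisons between the lines share their libraries with the TGF-β comparisons, so the values of a gene in the 2 kinds of comparison are not independent.

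The genes called lower in knockout cells, other than Atp5l, lay among neighbours whose median was below 0. Many members that were not called also had such neighbours. For each member the 40 nearest tested genes on the chromosome, 20 on each side, were taken, and the median of their log2 fold changes was compared with the member's own. Around Cox4i1 the neighbours' median was -0.94 without treatment and -0.74 with TGF-β, and 37 of the 40 lay below 0 in each. Around Ndufa1 it was -0.61 and -0.68, around Ndufb11 -0.42 and -0.46, and around Ndufa13 -0.42 and -0.39. Cox6c had neighbours at -0.30 and -0.26, with its own values at -0.25 and -0.34. Around Atp5l the neighbours' median was 0.03 and -0.04, with 15 and 23 of the 40 below 0. The third X-linked member, Cox7b, had neighbours at 0.20 and 0.15 and its own values at -0.01 and 0.13. Ndufb7, on chromosome 8, had neighbours at -0.31 and -0.40 and its own values at -0.37 and -0.21, neither of which passed. Ndufa6, on chromosome 15, had neighbours at -0.28 and -0.03. Its own values were -0.30 and -0.05, and neither passed. The neighbours of Ndufa1 span 25.2 Mb and those of Ndufb11 24.1 Mb, and these ranges overlap.

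Across the 78 members, own change and neighbours' median had a Pearson r of 0.73 (Spearman rho 0.32) without treatment and 0.67 (rho 0.38) with TGF-β. In the TGF-β comparisons r was 0.09 in parental and 0.12 in knockout cells. Members that lie close together share neighbours, so the points are not independent. Over whole chromosomes without the members, the median log2 fold change between untreated lines was -0.46 on chromosome 8, -0.28 on chromosome 3 and -0.17 on chromosome 15, and -0.02 on chromosome X, where 21.3% of genes were lower. These 4 chromosomes were picked after values were seen, and they hold all 3 members called without treatment. The 0 calls without treatment among the 65 members elsewhere therefore follow from that choice and are no separate result. Of the 65, 3 had an unadjusted p under 0.05 in edgeR without treatment, and with TGF-β 3 were called higher and 1 lower.

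**Figure D4:**
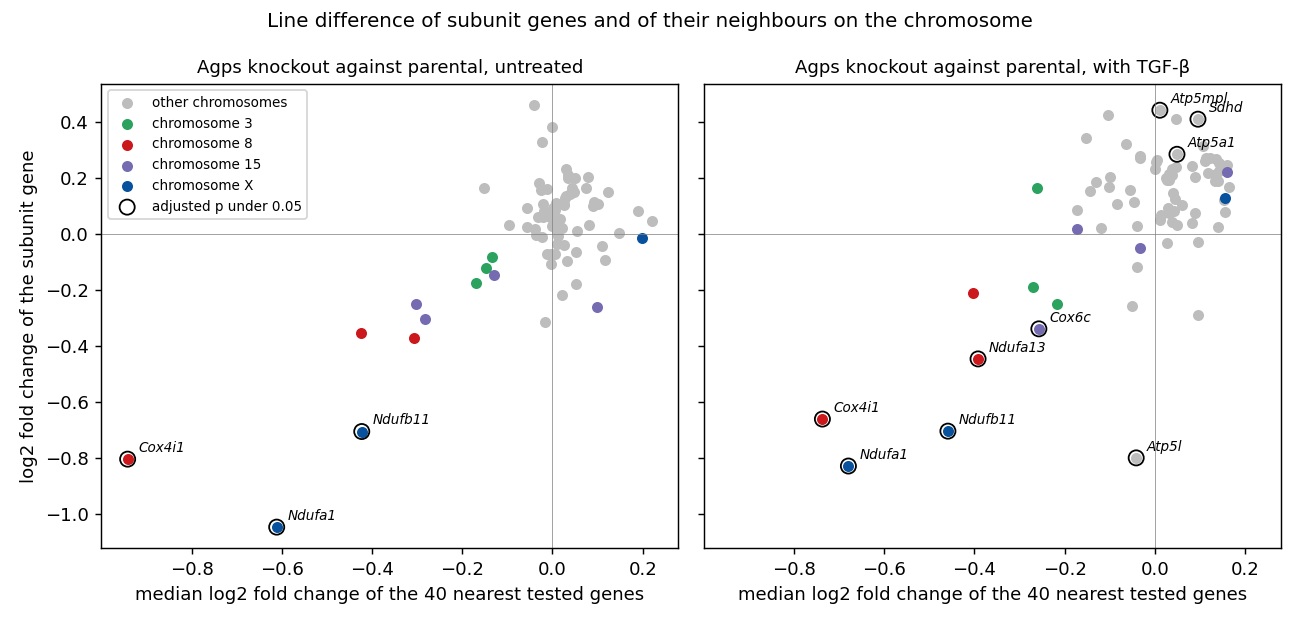
Log2 fold change of each tested subunit gene between Agps knockout and parental cells (y axis) against the median of its 40 nearest tested genes (x axis), untreated (left) and with TGF-β (right). Colours mark chromosomes 3, 8, 15 and X, rings mark an adjusted p under 0.05: untreated, the 3 ringed genes lie at the lower left, where the neighbours' medians run from -0.94 to -0.42.

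Summed over the 90 members, parental cells held 6227 and 6347 CPM untreated and 5656 and 5487 CPM with TGF-β. Knockout cells held 6304 and 6651 CPM untreated and 5603 and 6631 CPM with TGF-β. The treated parental libraries lay below the untreated ones, while in knockout cells treated replicate 2 lay within the untreated range. Complex V made up the largest part of the sum in every library, with 2179 to 2753 CPM.

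The 13 protein-coding genes of mitochondrial DNA encode the partner subunits. Of these 7 were tested, and mt-Co2, mt-Co3, mt-Atp6, mt-Atp8, mt-Nd3 and mt-Nd4l had at most 1 count in any library, so they give no measure of those transcripts. In parental cells with TGF-β 3 of the 7 rose, where 21.3% of all genes did, with a median log2 fold change over the 7 of 0.67. These were mt-Co1 (0.68, SE 0.18, edgeR adjusted p = 0.00925), mt-Nd2 (0.67, SE 0.21, edgeR adjusted p = 0.0222) and mt-Nd4 (0.76, SE 0.26, edgeR adjusted p = 0.0322), subunits of complexes IV and I. How the parental count holds without a parental library was not examined. In knockout cells none passed, and the median was 0.08. Without treated knockout replicate 1 that median was -0.38 with 1 fall, and without replicate 2 it was 0.40 with 1 rise. Mitochondrially encoded genes took 3.37% and 2.37% of counts in untreated parental cells, 4.31% and 3.80% with TGF-β, 3.46% and 2.80% in untreated knockout cells and 3.96% and 2.36% in knockout cells with TGF-β. In all groups but treated parental cells, the library with the higher mitochondrial share had the lower summed level of nuclear-encoded subunits. Whether this share has a part in the nuclear values was not tested.

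**Figure D5:**
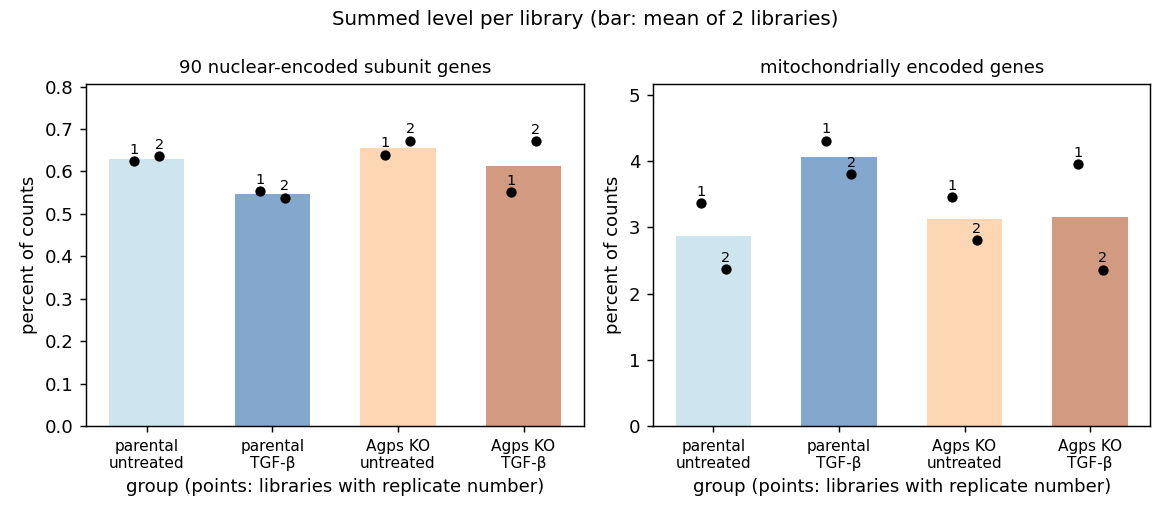
Percent of all counts in the 90 nuclear-encoded subunit genes (left) and in mitochondrially encoded genes (right) by group, with bars at the mean of 2 libraries and points for the libraries, numbered by replicate. The 2 knockout libraries with TGF-β differ from each other in both panels, at 0.552% and 0.672% on the left and 3.96% and 2.36% on the right.

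Genes that build and feed the chain were taken from lists written for this work. Over all genes tested, 21.2% fell and 21.3% rose with TGF-β in parental cells, and 20.6% fell and 20.9% rose in knockout cells. The parental counts of the lists are with all libraries, and how they hold without a parental library was not examined. Of 16 complex I assembly factors, 3 fell and 2 rose in parental cells and 4 fell and 1 rose in knockout cells. Among them Ndufaf3, needed early in assembly, fell by 1.38 (SE 0.24) and 0.75 (SE 0.23), and Ndufaf4, its partner, rose by 0.58 and 0.43. In knockout cells the list had 1 fall without treated replicate 1 and 4 without replicate 2, with no rise in either, and the call of Ndufaf3 was lost without replicate 1 (-0.52) and that of Ndufaf4 without either (0.34 and 0.52). Of 21 tested complex IV assembly factors 5 fell and 1 rose in parental cells and 6 fell in knockout cells (3 and 4 without treated replicate 1 and 2). Coa3, which helps make subunit 1, stood at 57.1 and 64.8 CPM untreated and 23.9 and 21.8 CPM with TGF-β in parental cells, and at 68.3 and 72.9 against 28.0 and 34.3 CPM in knockout cells. Its log2 fold changes were -1.41 (SE 0.12, edgeR adjusted p = 3.21e-06) and -1.18 (SE 0.12, edgeR adjusted p = 1.02e-05), larger than those of any tested complex IV subunit. Cox15, which makes haem A, fell by 0.67 and 0.61, and the copper chaperone Cox19 by 0.73 and 0.71. Complex II assembly factors gave 1 rise and 1 fall of 4 in parental cells and 1 fall in knockout cells. Of 6 complex III factors 1 rose in parental and 3 in knockout cells, Ttc19 in both (0.47 and 0.38). Of 4 complex V factors 1 rose in parental cells, and in knockout cells 1 rose and 1 fell. Tmem70 rose in both lines, by 0.65 and 0.35. The knockout fall in complex II factors was lost without treated replicate 1, and complex III factors then had 2 rises, as they did without replicate 2.

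The mitochondrial ribosome, which translates the mitochondrially encoded subunits, had 77 tested genes. In parental cells 13 fell and 3 rose, with a median of -0.13, and in knockout cells 6 fell and 3 rose, with a median of 0.01. Without treated knockout replicate 1 the latter were 2 falls and 4 rises (median 0.08), and without replicate 2 they were 7 falls and 0 rises (median -0.09). Mrps6 fell by 0.73 and 0.86. Of 14 genes for the expression of mitochondrial DNA 3 rose and 1 fell in parental cells and 2 rose in knockout cells (3 and 2 without treated replicate 1 and 2): Twnk, the helicase, rose by 0.57 and 0.51, Mterf1a by 1.12 and 0.78, and Tfam, which packages the DNA, fell by 0.47 in parental cells, with a value of -0.22 in knockout cells (edgeR adjusted p = 0.0716). Of 13 coenzyme Q genes 4 fell and 2 rose in parental cells and 1 fell and 2 rose in knockout cells (0 and 2 without treated replicate 1, 1 and 1 without replicate 2). Of 3 tested cytochrome c and c1 genes only Cycs was called, higher in knockout cells (0.63, edgeR adjusted p = 0.0433), a call lost without either treated knockout library (0.55 and 0.71). Of 6 carriers of ATP, ADP and phosphate 1 fell in each line, Vdac1, a pore of the outer membrane (-0.39 and -0.48). In the supercomplex and cristae list of 10, only Mcub, a partner of the calcium uniporter, was called, higher in each line (1.10 and 2.07).

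Of 12 tested genes that bring pyruvate into the mitochondrion and oxidise it, 7 fell and 1 rose in parental cells and 9 fell in knockout cells, with medians of -0.62 and -0.50. The knockout falls were 5 without treated replicate 1 and 7 without replicate 2. Pdk1 and Pdk2, the kinases that switch pyruvate dehydrogenase off, fell by 1.82 (SE 0.21) and 1.69 (SE 0.24) in parental cells and by 1.43 (SE 0.19) and 1.16 (SE 0.22) in knockout cells. Pdhb and Pdhx, parts of the dehydrogenase itself, fell by 0.43 and 0.51 in parental and by 0.51 and 0.49 in knockout cells, and Pcx, pyruvate carboxylase, by 0.79 and 0.46. Of 14 genes of the citric acid cycle, 5 fell and 1 rose in parental cells and 4 fell and 1 rose in knockout cells, with Suclg2 at -1.12 and -1.05. Without treated knockout replicate 1 the cycle had 1 fall, Suclg2, and 1 rise in knockout cells, and without replicate 2 it had 4 falls and 1 rise.

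Among 15 tested regulators of respiratory genes, 3 rose and 3 fell in parental cells and 4 rose and 4 fell in knockout cells (4 and 4 without treated replicate 1, 4 and 3 without replicate 2). Ppargc1a, a coactivator known for raising mitochondrial gene expression, had 42 and 102 counts in untreated and 5 and 6 in treated parental libraries, and 241 and 480 against 8 and 8 in knockout libraries. Every treated library was below every untreated one, and the log2 fold changes were -3.68 (SE 0.66, edgeR adjusted p = 0.000885) and -5.30 (SE 0.53, edgeR adjusted p = 8.88e-06). Its level in untreated knockout cells was higher than in untreated parental cells by a log2 fold change of 2.07 (SE 0.38, edgeR adjusted p = 0.00394). Whether its level bears on the subunit genes was not tested. Nrip1, a corepressor of the same programme, rose by 1.48 and 1.65, and Ppard rose by 0.50 and 0.64. Esrra, the oestrogen-related receptor alpha, fell by 0.57 (SE 0.11, edgeR adjusted p = 0.00185) in parental cells and had a value of -0.10 in knockout cells (edgeR adjusted p = 0.534), and the difference between the lines did not pass (0.47, SE 0.16, edgeR adjusted p = 0.186).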

How the data were processed

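The submitters' processing notes name STAR 2.7.1a, featureCounts 1.6.2, DESeq2 1.26.0 and the mouse build GRCm38 (mm10). Annotation release, strandedness and filters were not given in the sources used here. As deposited, the authors' files hold raw counts per gene for each of the 8 libraries. These counts were used, and the authors' normalized table was not.

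The filterByExpr rule of edgeR (minimum count 10) left 14641 genes with 99.9% of the counts, and scaling was by TMM. In R 4.3.3, the quasi-likelihood model of edgeR 4.0.16, with a mean for each of the 4 groups and 4 residual degrees of freedom, gave log2 fold changes, standard errors derived from the F statistic and p-values, adjusted by Benjamini-Hochberg over all genes tested. A gene rose or fell where the adjusted p was under 0.05. CPM are after TMM. On simulated data for TGF-β in parental cells, 152 of 200 genes changed 2-fold were recovered, 0 with the wrong sign and with 16 false calls, among 14165 genes. All other genes were simulated without change. Smaller changes, such as those of the members with TGF-β, were not simulated, so their recovery is not known.

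Names, positions, exon overlap and shared 50-base stretches came from GENCODE M21, where all 55450 identifiers matched, and promoter windows from RefSeq. Values in every library were given for the called members of largest change (4 per comparison), the called member of lowest adjusted p in each complex, paralogue sets and Sdha to Sdhd. Some results that this rule selects are not reported here. Other members could be named, and of each other list the 3 called genes of lowest adjusted p per TGF-β comparison. The members and lists were chosen with earlier results of these data known. Complex and module assignments follow textbook knowledge, except that all complex I members outside the N and Q modules were counted as membrane arm. The pseudogene symbols left out numbered 9, of which Ndufb1-ps had 551 to 727 counts. Alternatives were upper quartile scaling, DESeq2 size factors in edgeR, the DESeq2 1.42.0 Wald test, no filter, a replicate block, only the groups compared, and leaving out each library.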

Additional observations from a re-analysis of the deposited data

How the results depend on the processing

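Of 43 member results that passed, 12 passed in all 14 alternatives, 34 passed in all that kept every library, and 0 changed direction. In parental cells with TGF-β, leaving out 1 library gave 0 to 1 rises and 4 to 21 falls. In knockout cells it gave 0 to 6 rises and 3 to 16 falls, with a median of -0.21 to 0.057, and the DESeq2 Wald test gave 1 rise. Between untreated lines, upper quartile scaling, no filter and the replicate block each gave 1 member higher, leaving out 1 library gave 0 to 1 higher, and the replicate block gave 5 lower. Between treated lines, leaving out 1 library gave 0 to 9 higher and 3 to 6 lower, with a median of 0.038 to 0.30. With replicate number as a block, TGF-β gave 1 rise and 22 falls in parental cells and 3 rises and 14 falls in knockout cells, the treated lines differed by 5 higher and 6 lower, and the difference between lines had 0 calls. Nothing says what a replicate number shares: the differences between replicates correlated across genes by 0.02 to 0.46 between groups, so the numbers were not taken to pair libraries. The cause of these shifts was not tested, beyond the smaller number of libraries where 1 was left out. The medians given here for fits without 1 library are over the 79 or 80 members that each such fit tested. Upper quartile scaling moved the median of all genes by less than 0.05. With 2 libraries a group, changes of the size of the members' median lie close to their standard errors.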
